A study of Rattus norvegicus with 6 samples.

Results

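The unconventional myosins of hair cells (HCs) were followed in the vestibular epithelium of rats exposed to 3,3'-iminodipropionitrile (IDPN), a nitrile that is toxic to the sensory HCs of the inner ear. Named genes were Myo7a, Myo6, Myo15a, Myo3a, Myo3b, Myo1c, Myo1h, Myo10 and Myo5a. Rows were taken by gene symbol, which gave 8 of the 9 named genes out of 32883 genes in the table, and all 8 were among the 14352 genes tested. Myo1h, a class I myosin, was not analysed here.

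RNA-seq counts came from 6 adult male Long-Evans rats, for which no genotype beyond the strain is given. The 3 IDPN-4wk rats drank water with 20 mM IDPN for 4 weeks, and the 3 control rats drank plain water. Each library held the utricles and cristae of a single animal, taken as whole epithelium without sorting of cells, so no library mixed animals. The 6 libraries held from 13358678 to 18561991 counts, and they share a single batch label. The animal codes of the 3 IDPN-4wk rats start alike and differ from those of the controls. If that start marks a cage or litter, it cannot be told apart from exposure.

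Myosins are motors that use ATP to move along actin filaments. Unconventional myosins do not build the thick filaments of muscle. They carry cargo, tension membranes or tether proteins, and in HCs they sit along the stereocilia, the actin-filled projections of the hair bundle that open the mechanotransduction channels. MYO7A holds the tip-link machinery and is a standard label of HCs. MYO15A brings the elongation complex with whirlin and EPS8 to stereocilia tips. MYO3A and MYO3B, the class III myosins, carry espins to the tips, and MYO6, which walks towards the opposite end of actin, works at the stereocilia base and in vesicle traffic. MYO1C, MYO10 and MYO5A also occur in many cells outside the hair bundle. Loss of Myo7a, Myo6, Myo15a or Myo3a function is known to cause deafness.

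The reference windows at the starts of these genes are shown as context, and those of Myo7a and Myo3b differ from that of Myo6 in base composition. Entries of RefSeq (build GRCr8) were found for 6 of the 8 genes measured, with a pair of entries for Myo1c and none shown for Myo15a and Myo3a. Each sequence below is the 250 bases before the start given there, 5′ to 3′ on the coding strand, with CpG dinucleotides in capitals. Myo7a lies at chr1:161818578-161818827 (minus strand), Myo3b at chr3:75227767-75228016 (plus strand) and Myo6 at chr8:89967147-89967396 (plus strand).
Myo7a: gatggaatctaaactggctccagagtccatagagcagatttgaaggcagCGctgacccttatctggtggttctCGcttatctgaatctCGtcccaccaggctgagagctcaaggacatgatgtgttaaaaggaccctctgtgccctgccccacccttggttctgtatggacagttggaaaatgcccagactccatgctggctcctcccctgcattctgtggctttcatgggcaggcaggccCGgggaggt
Myo3b: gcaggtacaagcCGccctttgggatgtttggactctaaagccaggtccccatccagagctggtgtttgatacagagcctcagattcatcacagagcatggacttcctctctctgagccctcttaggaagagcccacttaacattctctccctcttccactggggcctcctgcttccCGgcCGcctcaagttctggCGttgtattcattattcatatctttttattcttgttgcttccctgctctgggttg
Myo6: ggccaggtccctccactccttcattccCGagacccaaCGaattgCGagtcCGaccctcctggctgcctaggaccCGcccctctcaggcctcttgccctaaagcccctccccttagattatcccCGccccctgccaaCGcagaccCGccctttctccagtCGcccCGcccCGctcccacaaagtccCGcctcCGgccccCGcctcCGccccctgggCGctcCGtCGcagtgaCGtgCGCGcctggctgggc
These stretches held 4 CpG dinucleotides in Myo7a, 4 in Myo3b and 21 in Myo6. In the full windows of 300 bases the number was 4 for Myo7a, 4 for Myo3b, 26 for Myo6, 23 for Myo10 and 47 for Myo5a, and the windows of Myo1c held 1 and 27. Over 33469 windows the lower quartile was 3, the median 7 and the upper quartile 19, and 30.7% of them held fewer CpG than Myo7a or Myo3b. CpG content was looked at after the values were known, so it is a description, and its relation to the fold changes was not tested. Myo6 was also lower in exposed animals (69.8% of control), and Myo15a, which was lower too, has no window here. The letters CAGCTG (the E-box), ATGCNAAT (an octamer-like POU motif), GTTGCC (part of an X-box) and TATAAA (the TATA box) were searched on both strands. The E-box stood in a window of Myo1c and the other motifs in no window of these genes, while 15.1%, 3.24%, 12.2% and 14.2% of all windows held them. Absence from a window of this length says nothing about the factors that read these motifs.

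The comparison asked whether myosin transcripts of HCs were lower after exposure. Myo3b, Myo15a and Myo7a were downregulated, which means a Benjamini-Hochberg adjusted p (Padj) under 0.05 over all genes tested and a fold change over 1.5. Myo6 had a Padj under 0.05 with a smaller fold change. Myo3a, Myo1c, Myo10 and Myo5a did not pass the test. In all, 3 of 8 genes were downregulated and 0 upregulated, where 6.62% of all genes tested were downregulated. Genes in either direction made up 9.71%, and upregulated genes 3.09%. Of these myosins 0 were upregulated also by DESeq2 and limma voom, and 0 had a higher level at an unadjusted p under 0.05. Control and IDPN-4wk libraries did not overlap for 4 of the 8 genes, against 37.8% of all genes tested. Fewer HCs and less RNA per HC cannot be told apart in whole epithelium. All values per library are CPM, counts scaled to a common library total, after correction of that total by the trimmed mean of M values (TMM), and they are not corrected for gene length, so they compare libraries and not genes.

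**Figure D1:**
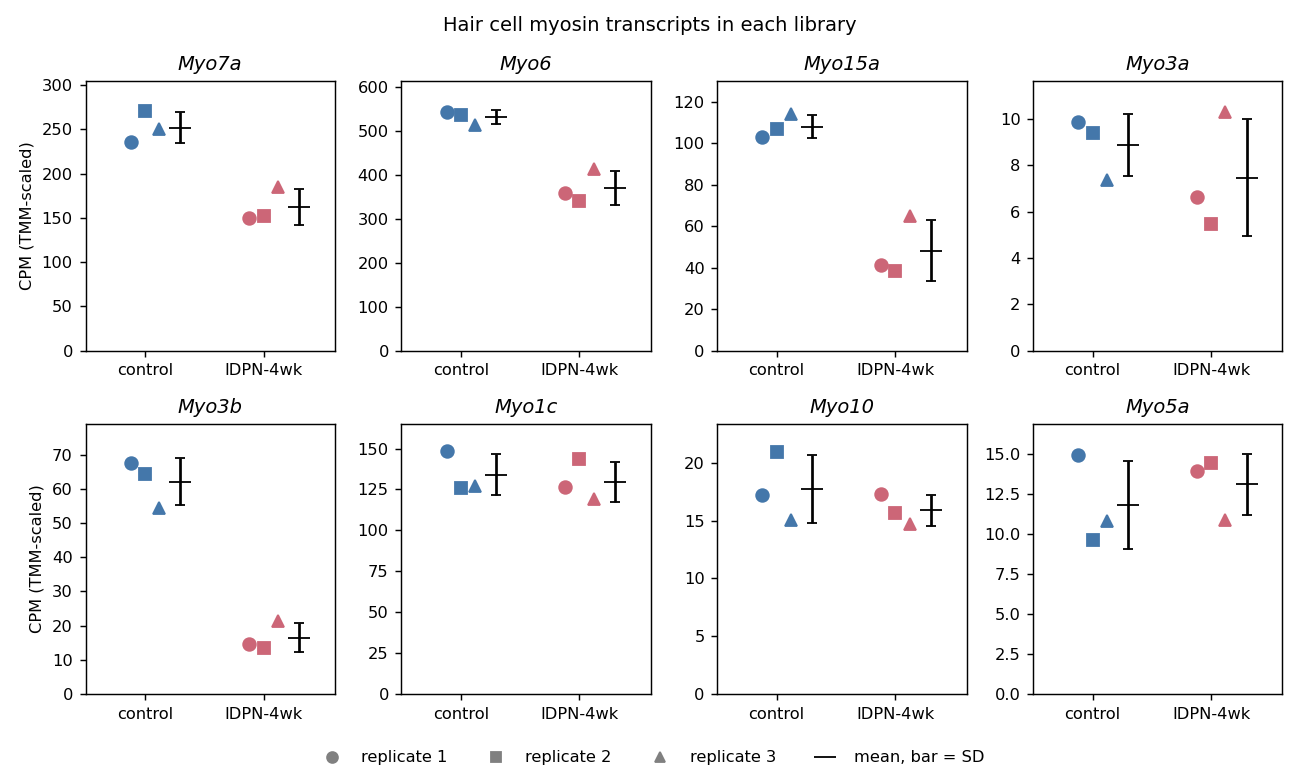
TMM-scaled CPM of 8 unconventional myosin genes (y axis, linear, from 0) in the 3 control and 3 IDPN-4wk libraries, with 1 point per animal and the mean and SD beside them. The groups stand apart for Myo7a, Myo6, Myo15a and Myo3b and overlap for Myo3a, Myo1c, Myo10 and Myo5a.

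The class III genes differed from each other. Myo3b (ENSRNOG00000030022) was at 67.5, 64.4 and 54.4 CPM in the control libraries and at 14.7, 13.5 and 21.4 CPM in the IDPN-4wk libraries. The highest exposed animal was thus well under the lowest control. By edgeR the level fell to 26.6% of control, a log2-Fold change of -1.91 with SE 0.16 (Padj 4.11e-05), the largest decrease among these 8 genes by edgeR. Myo3a (ENSRNOG00000018478) had few counts, from 92 to 160 per library, and stood at 9.88, 9.37 and 7.36 CPM in control and at 6.61, 5.47 and 10.3 CPM in IDPN-4wk libraries. The third exposed animal had the highest Myo3a level of all 6, and the groups overlapped (log2-Fold change -0.25, 95% interval -0.80 to 0.29, edgeR Padj 0.513). Without that library the log2-Fold change of Myo3a was -0.57 (edgeR Padj 0.103).

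The balance of the class III pair was then read within each animal, where library scaling plays no part. There were 6.84, 6.87 and 7.39 Myo3b counts for each Myo3a count in the control libraries, and 2.22, 2.47 and 2.08 in the IDPN-4wk libraries. The log2 ratio of Myo3a to Myo3b was 1.64 higher in the exposed animals, at -1.17 ± 0.13 against -2.81 ± 0.06 in control (SD, n = 3 each), and the groups did not overlap. An exact two-sided permutation test gave p = 0.1, which is the smallest p that 3 against 3 animals allow. This pair was picked after its values were seen. Myo3a and Myo3b are paralogs, and the share of reads that fit both is not known here.

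Myo15a (ENSRNOG00000059219) stood at 103, 107 and 114 CPM in control libraries. In IDPN-4wk libraries it was at 41.1, 38.4 and 65.0 CPM, so every exposed animal was below every control. The gene fell to 44.6% of control by edgeR, with a log2-Fold change of -1.17 (SE 0.17, Padj 7.88e-04). The exposed animals varied more than the controls, with a coefficient of variation of 30.4% against 5.18%, because replicate 3 kept a higher level than the other exposed animals. Without that library the log2-Fold change was -1.46.

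Myo7a (ENSRNOG00000013641), the gene of the HC label, was at 235, 271 and 251 CPM in control and at 149, 152 and 185 CPM in IDPN-4wk libraries. The groups did not overlap and by edgeR the log2-Fold change was -0.64 with SE 0.095 (Padj 0.00109), or 64.4% of control. The fold change lay near its threshold of 1.5 (0.58 on the log2 scale): with library size alone the log2-Fold change was -0.53, under the threshold, and without control replicate 2 it was -0.58, also under it. Padj stayed under 0.05 in both cases. Against a fold change of 1.5 itself (glmTreat), Myo7a was not called, while Myo3b and Myo15a were.

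Myo6 (ENSRNOG00000011852) had the most counts of these genes, up to 8434 in a library. Its levels were 545, 537 and 514 CPM in control and 359, 340 and 415 CPM in IDPN-4wk libraries, with no overlap. The level of the exposed animals was 69.8% of control by edgeR, a log2-Fold change of -0.52 (SE 0.084, Padj 0.00183) that lay under the threshold. Without IDPN-4wk replicate 3 it passed that threshold (log2-Fold change -0.62). At Padj under 0.05 alone, 4 of the 8 genes were called, against 19.4% of all genes tested.

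Like Myo3a, the genes Myo1c, Myo10 and Myo5a did not pass the test. Myo1c (ENSRNOG00000004072), a class I myosin studied for its part in adaptation of the transduction channels, was at 148, 126 and 127 CPM in control and 126, 143 and 119 CPM in IDPN-4wk libraries. Its log2-Fold change of -0.05 had a 95% interval from -0.25 to 0.16 (edgeR Padj 0.763), and its sign turned when libraries were scaled by their size only (0.062) and when control replicate 1 was left out (0.033). Myo10 (ENSRNOG00000010161), a motor of filopodia, was at 17.2, 20.9 and 15.1 CPM in control and at 17.3, 15.7 and 14.7 CPM in IDPN-4wk libraries (log2-Fold change -0.16, 95% interval -0.48 to 0.17, edgeR Padj 0.492).

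Myo5a (ENSRNOG00000058866) carries vesicles in neurons and pigment granules in melanocytes. It was at 14.9, 9.65 and 10.8 CPM in control and at 13.95, 14.4 and 10.9 CPM in IDPN-4wk libraries, with overlapping groups (log2-Fold change 0.15, 95% interval -0.27 to 0.57, edgeR Padj 0.629). For Myo1c and Myo10 these intervals exclude a 1.5-fold change in either direction. The upper bound of Myo5a lies just under that size, and its log2-Fold change was 0.26 with library size alone and 0.36 when control replicate 1 was left out, so an increase of that size is not excluded. The interval of Myo3a does not exclude a decrease of that size.

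Setting each gene against Myo7a in the same library gave a comparison that needs no scaling. The log2 ratio to Myo7a was lower in IDPN-4wk than in control for Myo3b (difference -1.29) and Myo15a (-0.56), with groups apart. For Myo1c (0.59) and Myo10 (0.49) it was higher, also with groups apart. Myo7a was itself downregulated, and the CPM of Myo1c and Myo10 overlapped between groups, so their higher ratios restate the fall of Myo7a. The groups overlapped for Myo6 (0.12), Myo3a (0.35) and Myo5a (0.80). Exact two-sided permutation tests gave p = 0.1 for the 4 ratios with groups apart, the smallest p possible, and 0.175 after adjustment over the 7 ratios. Myo6 relative to Myo7a was at 1.21, 0.99 and 1.04 in control and at 1.26, 1.16 and 1.16 in IDPN-4wk libraries on the log2 scale, with a difference between groups that was within the spread of the control animals (exact permutation p = 0.3).

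**Figure D2:**
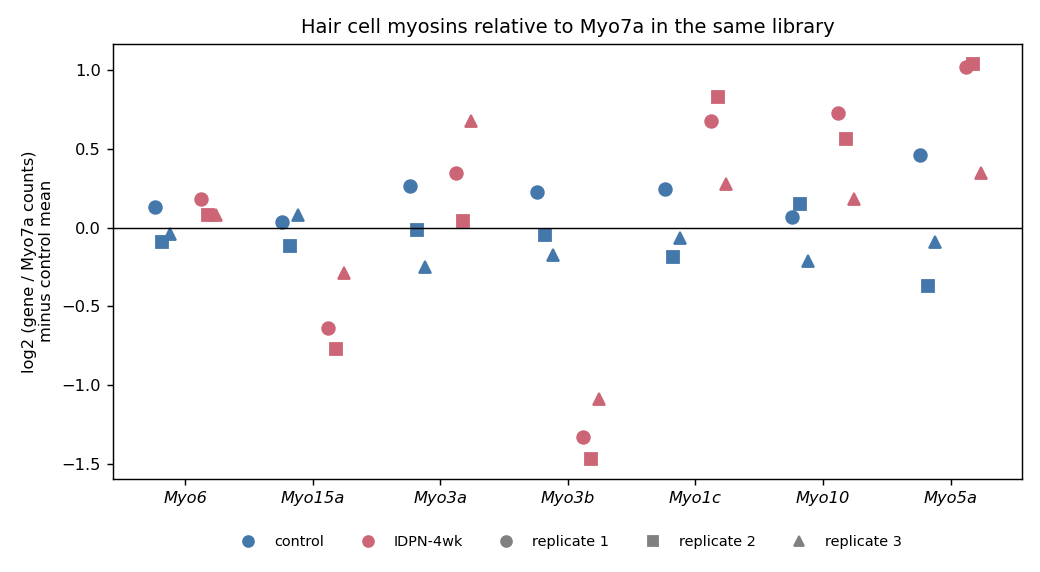
Log2 ratio of each gene's count to the Myo7a count of the same library (y axis, with the control mean of each gene set to 0), for 3 control and 3 IDPN-4wk animals. Points of the exposed animals lie below all controls for Myo15a and Myo3b and above all controls for Myo1c and Myo10. Myo7a, the reference, was itself downregulated.

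Pou4f3, a transcription factor gene of HCs, was used as a further reference after the values were seen. Control libraries held it at 141, 144 and 138 CPM and exposed ones at 96.6, 96.2 and 104 CPM, which is 70.3% of control. Relative to Pou4f3, the difference between IDPN-4wk and control was -0.01 for Myo6, -0.13 for Myo7a, -0.69 for Myo15a and -1.42 for Myo3b on the log2 scale. It was 0.46 for Myo1c, 0.36 for Myo10, 0.67 for Myo5a and 0.22 for Myo3a. The groups were apart for Myo15a, Myo3b and Myo1c and overlapped for the others. Exact permutation tests gave p = 0.1 for the 3 ratios with groups apart, 0.2 for Myo7a, Myo10 and Myo5a, 0.5 for Myo3a and 0.8 for Myo6, and 0.267 at the lowest after adjustment over 8 ratios.

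Across the exposed animals, replicate 3 had the highest level of Myo7a, Myo6, Myo15a, Myo3a and Myo3b, and the lowest level of Myo1c, Myo10 and Myo5a. Relative to the mean of the other exposed animals it stood at 123% for Myo7a, 119% for Myo6, 164% for Myo15a, 171% for Myo3a and 152% for Myo3b. The same library was the highest exposed one in 17 of 22 other HC marker genes, against 35.3% of all genes tested. This was not particular to HC genes. It was also the highest in 7 of 13 supporting cell, 5 of 8 Schwann cell, 4 of 6 endothelium and pericyte and 3 of 8 neuron genes. The number was 2 of 8 for stroma, 2 of 6 for dark cells, 1 of 10 for macrophages and leukocytes, 1 of 7 for melanocytes and 0 of 3 for red blood cells. Over the 6 libraries, Pearson's r of log2 CPM was 0.99 between Myo6 and Myo3b, 0.98 between Myo7a and Myo15a and 0.625 between Myo3a and Myo3b. The points share the exposure groups, and no test was made of these values.

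Genes that followed Myo7a most closely over the 6 libraries were Ptprt (r = 0.998), Ehbp1, a pair of clone-named genes and Bdnf, the gene of a neurotrophin (r = 0.9975). For Myo15a they were Tbck (r = 0.9991), Elmo1, Mycbpap, Astn1 and Jam3 (r = 0.9978). Of 11485 genes compared, 10% had r over 0.9 with Myo7a and 9.26% with Myo15a, a lower bar than the values above. The share was 0.74% for Myo3a and 0.218% for Myo1c.

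Proteins that work with these motors were compared next, from lists of known partners. Of 24 partner genes tested, 5 were downregulated and 0 upregulated. Among the partners of MYO7A, the tip-link genes Pcdh15 and Cdh23 were downregulated. Pcdh15 (ENSRNOG00000000606) fell from 9.43, 7.27 and 5.80 CPM in control to 0.575, 0.877 and 1.16 CPM in IDPN-4wk libraries, 11.6% of control, and edgeR gave a log2-Fold change of -3.09 (SE 0.33, Padj 1.36e-04). The exposed libraries held only 8, 17 and 18 counts of it. Cdh23 fell to 47.1% of control (log2-Fold change -1.08, edgeR Padj 0.00167). Ush1c, Ush1g and Twf2, the genes of the scaffolds harmonin and SANS and of an actin capping factor, were not called. Twf2 had a Padj of 0.032 by edgeR with a log2-Fold change of -0.25, and Ush1c stood at 88.2% of control.

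The partners of MYO15A did not pass the test. Of Whrn, Eps8, Gpsm2 and Gnai3, 0 were called by edgeR, 0 by DESeq2 and 0 by limma voom, and 1 had an unadjusted p under 0.05 by edgeR. Gpsm2 and Eps8 had the smallest p, with log2-Fold changes of -0.20 (edgeR Padj 0.103) and -0.13 (edgeR Padj 0.407). Whrn, the gene of whirlin, was at 22.6, 24.9 and 24.6 CPM in control and 19.3, 23.8 and 25.6 CPM in IDPN-4wk libraries. The log2 ratio of each partner to Myo15a was higher in IDPN-4wk by 1.12 for Whrn, 1.08 for Eps8, 1.01 for Gpsm2 and 1.24 for Gnai3. The groups did not overlap in any of the 4 ratios (exact permutation p = 0.1 each, the smallest possible, and 0.1 after adjustment). These ratios were chosen after the values were seen. Myo15a, their shared denominator, had fallen while these partners moved little, so the ratios restate that fall and add no separate result.

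Of 3 partners of the class III myosins, 1 was downregulated. Espnl, which encodes an espin-like cargo, fell to 53.7% of control by edgeR, a log2-Fold change of -0.90 (SE 0.11, Padj 2.66e-04). Espn, the gene of the actin bundler espin, was at 68.6% of control (-0.54, edgeR Padj 0.00132), and Morn4, a binding partner of MYO3A, was at 84.0% (-0.25, edgeR Padj 0.0421), both under the fold change threshold. Espn passed it when control replicate 1 was left out (-0.60). For Morn4 the edgeR Padj was 0.206 with library size alone and between 0.0523 and 0.123 in the fits that left out a library. The log2 ratio to Myo3b was higher in IDPN-4wk by 1.39 for Espn, 1.04 for Espnl and 1.68 for Morn4, with groups apart (exact permutation p = 0.1 each, the smallest possible). These 3 ratios, too, were chosen after the values were seen. Myo3b, their shared denominator, had fallen more than each partner, so the ratios restate that difference.

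Of 9 genes tested whose products work with MYO6, Otof and Clic5 were downregulated. Otof, the gene of otoferlin at the ribbon synapse, fell from 908, 905 and 875 CPM in control to 316, 376 and 488 CPM in IDPN-4wk libraries (log2-Fold change -1.19, SE 0.13, edgeR Padj 1.65e-04). Clic5, of the stereocilia base, fell to 65.7% of control (-0.61, SE 0.17, edgeR Padj 0.031). This call did not hold without control replicate 1 (-0.48), control replicate 2 (-0.59), IDPN-4wk replicate 1 (-0.64) or IDPN-4wk replicate 2 (-0.47). The median log2-Fold change of this list was 0.05, beside 0.02 over all genes tested. The partners of MYO5A in organelle transport, Mlph (0.44), Myrip (-0.23) and Rab27a (-0.15), were not called, with edgeR Padj at least 0.327. By DESeq2 and limma voom 0 of the 3 were called, and 0 had an unadjusted p under 0.05.

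Myosin motors need light chains, for which most of these motors use calmodulin. Of 9 rows tested for calmodulins, light chains, Cib1 and the myosin chaperone Unc45a, 1 was downregulated, a row named Calm2 (ENSRNOG00000030871) that fell to 58.8% of control by edgeR (log2-Fold change -0.77, Padj 1.50e-04). A different row of the same name (ENSRNOG00000016770) was at 101% of control. Rat calmodulin genes resemble each other closely, so the split of reads between these rows is uncertain. Calml4, a calmodulin-like gene, was at 79.7% of control (-0.33, edgeR Padj 0.0109), under the fold change threshold. Unc45a (0.23, edgeR Padj 0.0308) and Myl12b (0.26, edgeR Padj 0.0402), a light chain gene of conventional myosin, were higher by less than that threshold, and the median of the list was 0.13.

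Outside the HC set, 12 further unconventional myosins were tested, of which 1 was downregulated and 0 upregulated. Myo16 (ENSRNOG00000016483), a myosin known from neurons, fell from 60.3, 66.5 and 58.0 CPM in control to 21.7, 27.8 and 37.3 CPM in IDPN-4wk libraries, 47.0% of control, for which edgeR gave -1.09 on the log2 scale (SE 0.16, Padj 9.80e-04). Myo1e (-0.38, edgeR Padj 0.0333) and Myo1d (-0.30, edgeR Padj 0.032) lay under the fold change threshold. Myo1g, a class I myosin of blood cells, had the highest log2-Fold change of the list (1.597, 95% interval 0.29 to 2.90) and was not called (edgeR Padj 0.0833). Its libraries held 8, 1 and 4 counts in control and 13, 16 and 15 in IDPN-4wk animals. Myo1a, Myo7b and Myo18b had at most 12 counts in a library and were not tested. The median log2-Fold change was -0.11 for these 12 genes and -0.39 for the 8 HC myosins.

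**Figure D3:**
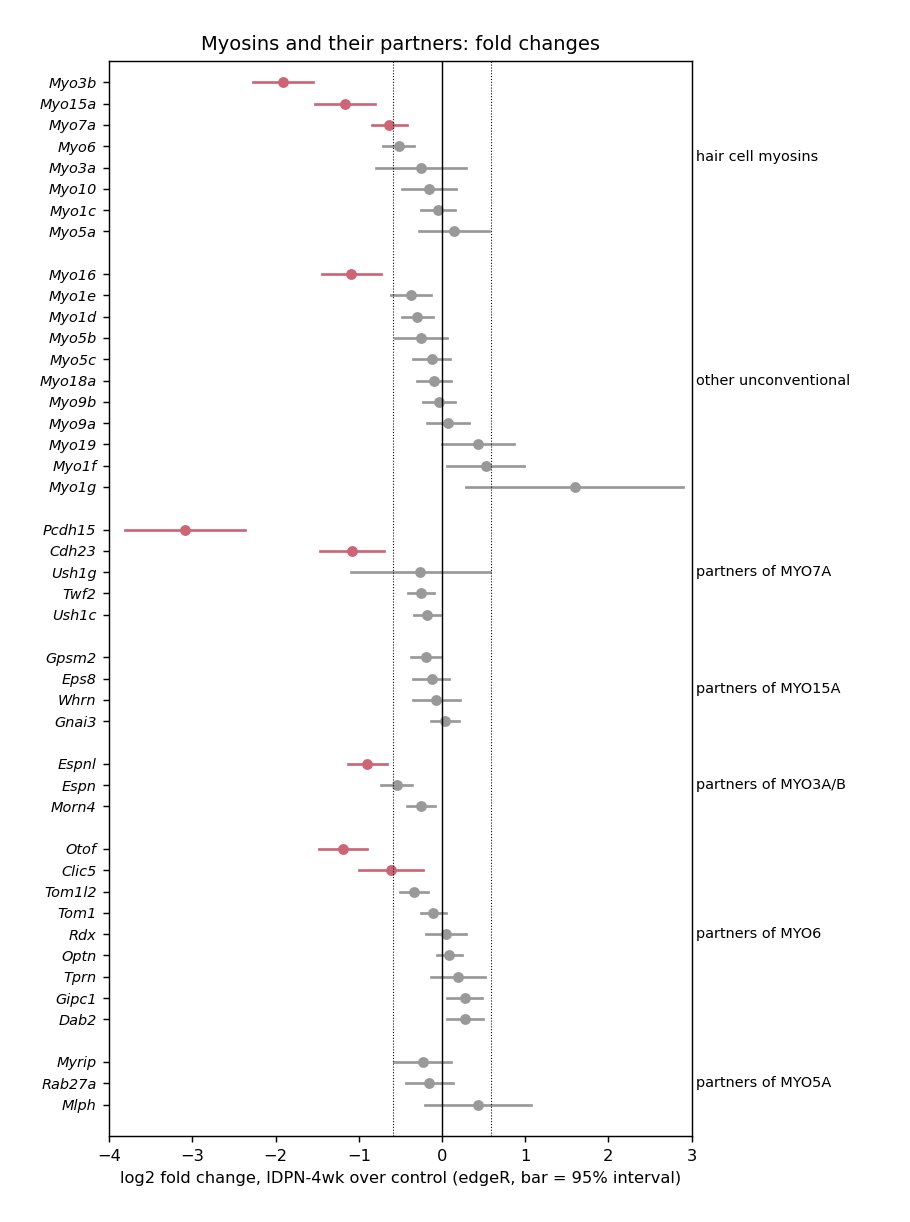
Log2-Fold change of IDPN-4wk over control (x axis) with its 95% interval from edgeR, for the HC myosins, 11 of the 12 further unconventional myosins tested (the remaining one is not reported here) and partners of each motor. Red marks downregulated genes, grey genes not called, and dotted lines a 1.5-fold change; Myo3b, at -1.91, lies farthest to the left of all myosins and Pcdh15, at -3.09, of all partners.

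Markers of HCs and of other cells give the setting of these values. Of 22 HC markers without myosins, 12 were downregulated, among them Slc17a8, Lhx3 and Tmc1. For the whole list the median was -0.91 on the log2 scale, and its summed level ranged from 2445 to 2819 CPM in control and from 1040 to 1631 CPM in IDPN-4wk libraries. All 22 were detected. Of the 10 not called, Rasd2 (-0.58, edgeR Padj 0.00436), Lhfpl5 (-0.52, edgeR Padj 0.0117) and Pou4f3 (-0.51, edgeR Padj 6.01e-04) lay under the fold change threshold, and Tmc2 (-0.56) had an edgeR Padj of 0.176. The other 6, Chrna10, Chrna9, Cib2, Tmie, Strc and Gfi1, had log2-Fold changes from -0.09 to 0.17. When single libraries were left out, 11 to 14 HC markers were downregulated. Supporting cell markers had a median of -0.33, with 4 of 13 downregulated, and their sum ranged from 13380 to 14730 CPM in control and from 7901 to 9438 CPM in IDPN-4wk libraries. For 8 neuron markers the median was -0.38, with 2 lower and 2 higher, and the sum went from between 141 and 152 to between 109 and 110 CPM.

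Melanocyte markers stand beside Myo5a, since MYO5A also serves pigment cells: 0 of 7 were called by edgeR or DESeq2 and 1 by limma voom, 4 had an unadjusted p under 0.05 by edgeR, and their sum ranged from 560 to 696 CPM in control and from 491 to 531 CPM in IDPN-4wk libraries. The median was -0.40 for 8 Schwann cell genes (1 lower), with a sum from 9314 to 11610 CPM in control and from 6413 to 9409 CPM in exposed animals. It was -0.63 for 6 dark cell genes (3 lower), whose sum went from between 1509 and 1937 CPM to between 955 and 1168 CPM. Genes of 3 further cell classes had medians closer to 0. For 10 macrophage and leukocyte genes (1 lower, 1 higher) it was 0.03, with sums from 285 to 375 CPM in control and from 207 to 359 CPM in exposed animals. For 8 stroma genes (1 lower, 1 higher) it was -0.20, with sums from 20600 to 23880 CPM and from 16380 to 19380 CPM. For 6 genes of endothelium and pericytes (1 lower) it was -0.14, with sums from 450 to 596 CPM and from 418 to 474 CPM. Red blood cell genes, 3 in number with 1 higher, had a median of 0.66 and sums from 95.3 to 113 CPM in control and from 110 to 221 CPM in exposed animals. Some of these sums were mostly 1 gene. In control, Pmel had a mean of 538 CPM where the melanocyte sum had 606 CPM. Coch had 20520 CPM of 22060 CPM for stroma, and Hbb 97.0 CPM of 101 CPM for red blood cells. The small numbers of genes called in the marker lists moved when a library was left out. Schwann cell genes called lower numbered 0 without control replicate 1, control replicate 3 or IDPN-4wk replicate 2, 2 without control replicate 2 or IDPN-4wk replicate 1, and 3 when IDPN-4wk replicate 3 was left out. The endothelial call was lost without control replicate 2, IDPN-4wk replicate 1 or IDPN-4wk replicate 2. The red blood cell call was lost in 5 of these 6 fits, and 2 genes were called higher without IDPN-4wk replicate 3. That fit also called 1 melanocyte gene lower. Macrophage genes called higher numbered 0 without control replicate 3 or IDPN-4wk replicate 1 and 2 without control replicate 2, and neuron genes called higher numbered 1 without control replicate 2, control replicate 3 or IDPN-4wk replicate 2. Of 6 skeletal muscle rows, Ckm and Tnni2 were at 0 in every library and only Myh4, a conventional myosin, was tested (log2-Fold change 2.87, edgeR Padj 3.66e-05). Mean levels of Acta1, Tnnt3 and Mylpf, the remaining muscle rows, were at most 0.383 CPM in either group, so the summed level of the list (from 7.01 to 11.0 CPM in control and from 41.2 to 72.2 CPM in exposed animals) was nearly all Myh4. The part of all these cells in the myosin values was not tested.

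**Figure D4:**
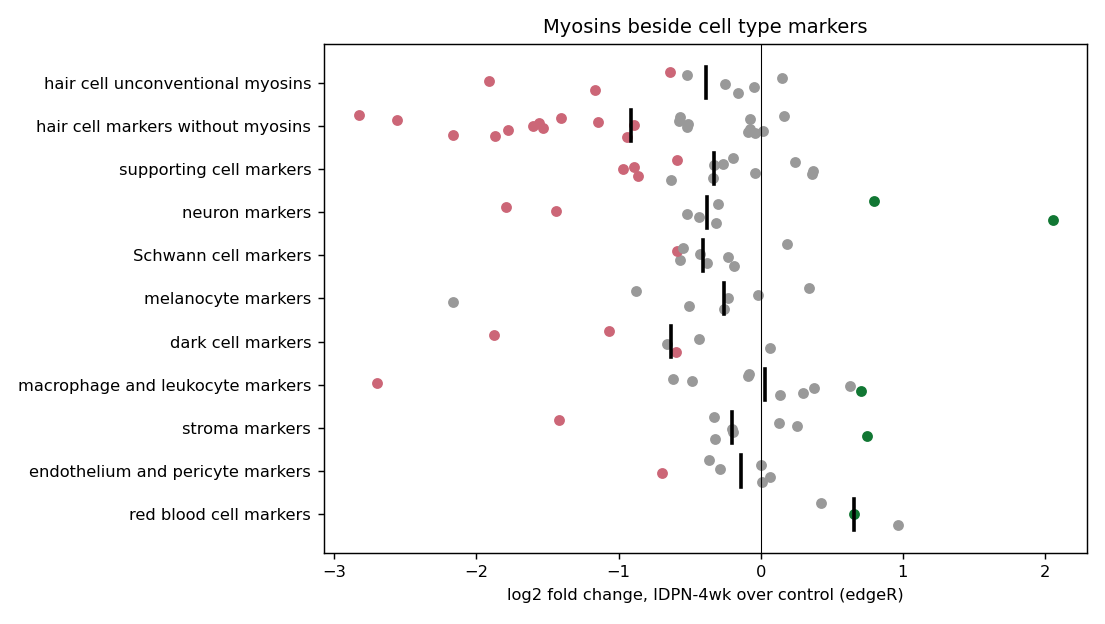
Log2-Fold change of IDPN-4wk over control (x axis, edgeR) for each tested gene of the HC myosins and of cell type marker lists, with 1 point per gene, the median as a black bar, and downregulated genes in red and upregulated genes in green. The median was -0.39 for the HC myosins and -0.91 for the other HC markers, and for the other lists plotted it lay between -0.63 and 0.03 except red blood cells, at 0.66. Skeletal muscle, with 1 gene tested (2.87), is not plotted.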

How the data were processed

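Paired-end reads were aligned by the authors to the rat genome (Rnor6.0) using STAR 2.5.3a, and RSEM gave gene-level estimates (1.3.0 per the submitters' processing notes; the study's methods state a different version). The deposited values are expected counts, whole numbers as deposited and unscaled. RSEM divides reads shared by similar genes, and the libraries kept no strand. No tested gene overlapped these myosins in the GRCr8 gene table, used for names and neighbours only.

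Genes were filtered with filterByExpr (minimum count 10, total 15), normalised by TMM and tested by quasi-likelihood in edgeR 4.0.16 (R 4.3.3), after a check on simulated data. Padj under 0.05 over all genes and a fold change over 1.5 made a call, and 9.71% of genes were called. Ratios were log2 of counts with 0.5 added, tested by exact permutation (scipy 1.17.1). Alternatives used DESeq2 1.42.0, limma 3.58.1, other scalings and filters, and fits without each library. The floor of 3 counts stood at 0.155 to 0.216 CPM and covers counting error only. Amplified reads had no molecular identifiers.

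Groups came from the treatment label, and replicates were numbered by accession order. Genes and lists were chosen with earlier results of these data known. The text names all the HC myosins, the called genes of each partner or myosin list and the genes with the smallest p where fewer than 2 were called, and the 5 genes most correlated with Myo7a and with Myo15a; other names were chosen after their values were seen. Of the marker lists, counts are given and few names. Some genes of the lists are counted but not reported here by name.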

Additional observations from a re-analysis of the deposited data

How the results depend on the processing

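Myo3b and Myo15a were downregulated in all 14 alternative fits other than the scaling by HC markers given below, with log2-Fold changes from -2.16 to -1.78 and from -1.46 to -1.02. The number of these myosins called ranged from 2 to 4 in the fits that left out a library and was 2 with library size alone, and also 2 with glmTreat, where all genes called numbered 453 in place of 1394. Myo7a was the gene lost in these cases (log2-Fold change -0.58 without control replicate 2 and -0.53 with library size alone), and Myo6 the one gained without IDPN-4wk replicate 3. Library size alone moved the median of all genes from 0.02 to 0.13, gave 780 lower against 762 higher genes in place of 950 against 444, and turned Myo1c to 0.062. Without single libraries Myo1c ranged from -0.129 to 0.033, the latter without control replicate 1. Library size alone also left 0 Schwann cell, 0 endothelium and 1 MYO6 partner genes downregulated and called 1 further myosin, Myo1f, as upregulated (0.63). Clic5 was also lost with upper quartile scaling (-0.58). With glmTreat, Cdh23, Clic5 and the Calm2 row were not called. Scaling by the summed counts of the 22 HC markers, chosen after seeing the data, called 5 of these myosins. Myo3b was lower (-0.88), and Myo5a (1.25), Myo1c (1.05), Myo10 (0.95) and Myo3a (0.76) were higher. Myo15a (-0.14), Myo7a (0.43) and Myo6 (0.55, edgeR Padj 0.0276) were not called. Myo7a, Myo6, Myo3a, Myo1c and Myo10 turned from lower to higher. Most HC markers fell, so this scaling raised the median of all genes to 1.11. Higher levels under it follow largely from the scaling itself. Of the myosins called higher, only Myo5a lay above that median. The share of all genes called under this scaling was not counted. No paired analysis was possible because the labels give no replicate numbers. Ratios to Myo7a kept their sign under all 8 alternatives. Low counts limit Myo3a, Pcdh15 and Ush1g.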
